A study of Homo sapiens with 15 samples.

Results

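ESR1 and 6 genes for transcription factors of luminal breast epithelium (FOXA1, GATA3, TBX3, SPDEF, TFAP2C and ELF5) were followed across 15 RNA-seq libraries of T47D cells. The 7 genes were taken by name from the 60664 gene IDs of the files, and all 7 were among the 16210 genes that passed the filter on low counts. T47D is an established luminal breast cancer line that expresses the oestrogen receptor. 4 groups were of TR cells (labelled TR01), which are resistant to 4-hydroxytamoxifen (4-OHT), the form of tamoxifen that blocks the oestrogen receptor. They received 5 µM erdafitinib, which inhibits the kinases of the FGF receptor family (FGFRs), together with 1 µM 4-OHT (TR combination), erdafitinib alone (TR erdafitinib), 4-OHT alone (TR 4-OHT) or 0.05% DMSO (TR vehicle). The fifth group was of parental cells, labelled PAR01, on 0.05% DMSO (PAR vehicle). Each group held 3 libraries. Before treatment all cells had 24 h to attach and 48 h in charcoal-stripped serum, and treatment lasted 120 h. TR cells had been maintained in charcoal-stripped serum with 1 µM 4-OHT and PAR cells in full serum, so the resistant state and the history of the cultures cannot be told apart. The sources used here do not say whether TR cells are 1 clone.

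Luminal breast cells are kept in their state by a small network of transcription factors. ERα, the protein of ESR1, is a nuclear receptor that binds oestrogen and is blocked by 4-OHT. FOXA1 is a pioneer factor that opens chromatin for ERα, and GATA3 is a zinc finger factor that acts with both and is needed to form luminal cells. TFAP2C (AP-2γ) binds at the ESR1 gene and at ERα sites. TBX3 is a T-box factor that represses transcription and takes part in mammary development. SPDEF is an ETS family factor of secretory and luminal epithelium, and ELF5 is an ETS factor of alveolar cells that is known to counter oestrogen signalling in breast cancer cells.

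In TR cells on vehicle, the RNA of ESR1, FOXA1, TFAP2C and ELF5 was lower than in PAR cells on vehicle, by 1.87-fold (ELF5) to 5.61-fold (TFAP2C). TBX3 was 9.51-fold higher. GATA3 was 1.37-fold higher by a call that was lost in 8 of 15 alternative analyses, and SPDEF was not called. In the main fit no drug given to TR cells moved any of the 7 past the threshold. ESR1 came closest, at 1.35-fold with erdafitinib, averaged over cells without and with 4-OHT. That average was called in 4 of 21 alternative analyses for ESR1 and in 1 of 21 for ELF5. A gene is called where its adjusted p (Benjamini-Hochberg, over all 16210 genes) was under 0.05 in edgeR's quasi-likelihood test. By that rule 6 of the 7 genes were called in TR vehicle against PAR vehicle, beside 35.9% of all genes tested, with 4 of 7 lower beside 16% of all genes and 2 of 7 higher beside 19.9%.

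Total counts ranged from 6946684 to 28717380 per library (median 22304029). PAR vehicle 2 and TR 4-OHT 2, with 8990899 counts, were the shallowest. Levels are given as CPM, counts scaled to the library's TMM-adjusted total, and 3 counts in a library equal 0.105 to 0.432 CPM, which covers counting error only. None of 9 luminal epithelial markers was under 1 CPM in all libraries of a group, and 11 of 12 markers of blood, vessel, stromal and liver cells were under 1 CPM in every library of every group. The exception was COL1A1, whose means lay between 17.9 and 27.0 CPM. Libraries of the same group differed along the GC content of transcripts. The 20% of genes richest in GC (median 60.9%) deviated from their group mean by -1.02 in TR vehicle 1 and by up to 0.89 in PAR vehicle 3 on the log2 scale. The labels speak of biological replicates and say no more, so the p-values measure the spread between these libraries, which may be technical. In bulk RNA, fewer cells that express a gene and less of its RNA per cell cannot be told apart.

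The DNA before the start sites of the called genes is shown because the members' factors are known to act on one another's genes. RefSeq start sites on GRCh38.p14 were at hand for 5 of the 7 genes, 15 windows of 250 bases in all: 6 each for ESR1 and GATA3 and 1 each for FOXA1, SPDEF and ELF5. For each called gene among them, the window with the most motif matches is printed 5′ to 3′ on the gene's strand, ending 1 base before the start, with capitals marking every match.
ESR1, chr6:151806946-151807195, plus strand: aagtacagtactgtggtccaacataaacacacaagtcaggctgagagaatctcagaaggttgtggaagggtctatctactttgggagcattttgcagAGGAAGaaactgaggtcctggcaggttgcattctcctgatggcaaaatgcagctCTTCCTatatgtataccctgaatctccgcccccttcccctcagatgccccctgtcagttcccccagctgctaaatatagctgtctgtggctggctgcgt
FOXA1, chr14:37595250-37595499, minus strand: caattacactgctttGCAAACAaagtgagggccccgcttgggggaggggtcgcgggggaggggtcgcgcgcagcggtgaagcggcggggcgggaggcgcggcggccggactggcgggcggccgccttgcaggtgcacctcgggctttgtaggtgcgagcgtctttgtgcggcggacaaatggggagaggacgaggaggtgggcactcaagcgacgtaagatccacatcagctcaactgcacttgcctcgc
ELF5, chr11:34511725-34511974, minus strand: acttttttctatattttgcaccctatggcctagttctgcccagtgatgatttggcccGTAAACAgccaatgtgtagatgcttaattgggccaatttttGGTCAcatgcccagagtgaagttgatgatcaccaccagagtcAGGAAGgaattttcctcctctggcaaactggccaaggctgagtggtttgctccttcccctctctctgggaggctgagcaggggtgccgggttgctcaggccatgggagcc
GATA3, chr10:8045083-8045332, plus strand: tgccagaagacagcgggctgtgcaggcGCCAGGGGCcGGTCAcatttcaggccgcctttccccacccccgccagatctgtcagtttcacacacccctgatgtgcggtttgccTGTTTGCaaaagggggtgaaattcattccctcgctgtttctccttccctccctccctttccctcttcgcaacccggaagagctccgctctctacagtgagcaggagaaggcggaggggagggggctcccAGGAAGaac
The motifs searched on both strands were the oestrogen response element (GGTCA, 3 letters of any kind, TGACC), its arm GGTCA alone, the forkhead site TGTTTNC, the GATA site AGATAA, the AP-2 site GCCNNNGGC, the T-box site AGGTGTGA and the ETS site AGGAAG. The arm also lies within the whole element. In the ESR1 window the capitals are a pair of ETS matches, 1 on each strand, and in the FOXA1 window a single forkhead match on the reverse strand. The ELF5 window holds a forkhead match, a GGTCA and an ETS match. The GATA3 window, the one farthest upstream, holds an AP-2 match and GGTCA next to each other, then a forkhead and an ETS match. The ESR1 and GATA3 windows printed are the richest of 6 each. Of the 6 ESR1 windows, 1 holds the ETS letters and 1 holds GGTCA. Of the 6 GATA3 windows, 3 hold GGTCA, 3 the AP-2 letters, 1 the forkhead letters and 1 the ETS letters. Over all 35116 windows of this length in the table, 15.5% hold the forkhead letters, 32.6% GGTCA, 28.7% the ETS letters and 19.8% the AP-2 letters. The full response element is in 0.0399% of windows, the GATA letters in 9.17% and the T-box letters in 0.786%, and none of the 3 is in the 15 windows of these genes. A match is a description of the letters, not a bound site.

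**Figure D1:**
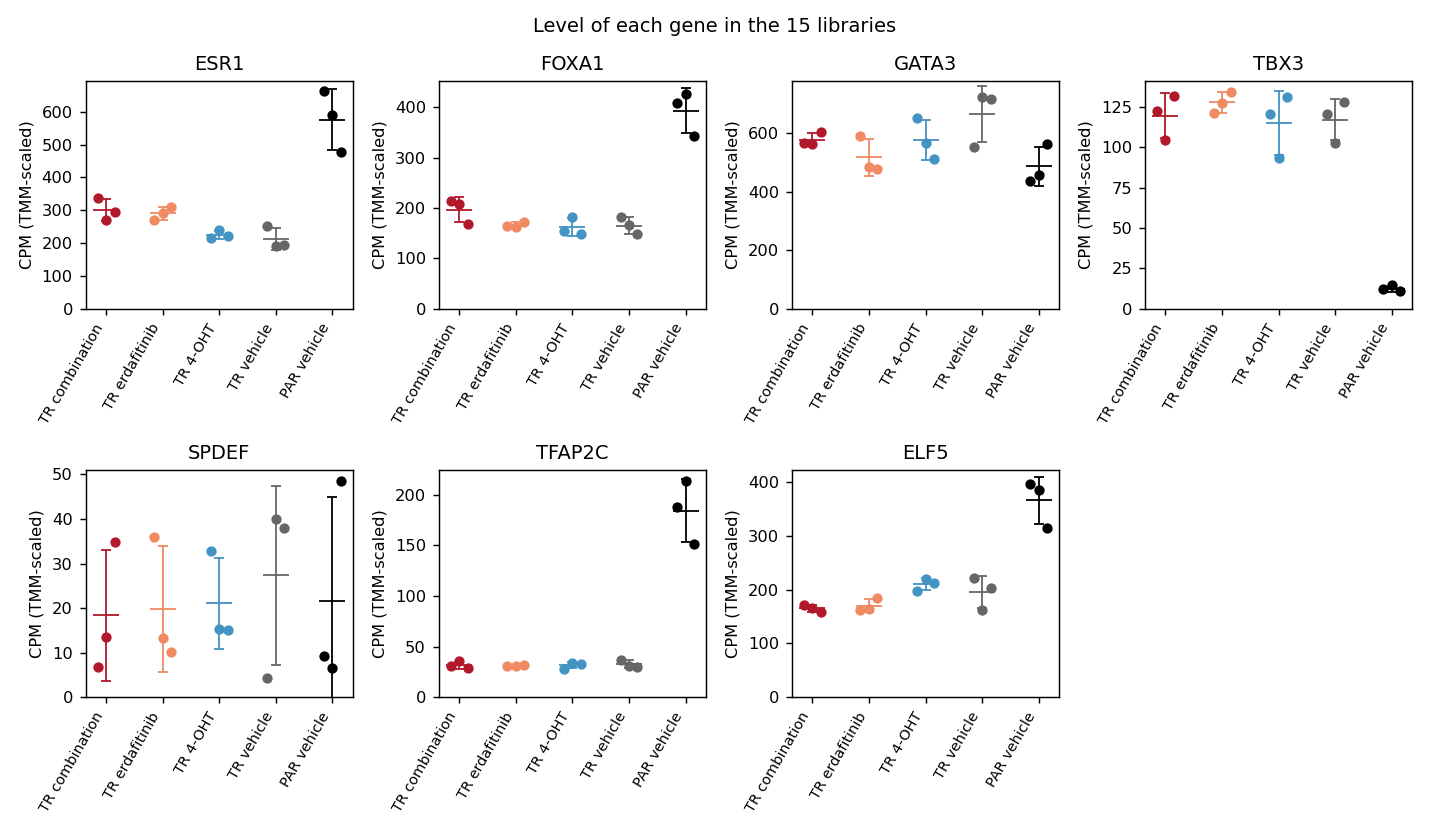
Level of each gene (CPM on TMM-scaled totals, y axis from 0) in the 3 libraries of each group (points), with the group mean (horizontal bar) and SD (whiskers, which for SPDEF in PAR vehicle run below the axis). ESR1, FOXA1, TFAP2C and ELF5 are lower and TBX3 is higher in every TR library than in every PAR library, while SPDEF spreads widely inside each group.

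ESR1 (ENSG00000091831, GRCh38 chromosome 6, 151656691 to 152129619, plus strand) had 251, 190 and 195 CPM in TR vehicle, against 662, 589 and 476 CPM in PAR vehicle. The highest TR library stood below the lowest PAR library. ESR1 fell by 1.44 on the log2 scale (SE 0.157; adjusted p = 7.39e-06, edgeR quasi-likelihood test), a 2.71-fold difference. The TR vehicle libraries still held 4864 to 5711 raw counts of it. With drug added, ESR1 averaged 300 ± 33.0 CPM in TR combination, 291 ± 20.4 CPM in TR erdafitinib and 225 ± 12.4 CPM in TR 4-OHT (SD, n = 3 each). These 3 means were 1.92-fold, 1.98-fold and 2.55-fold below the PAR mean in the fit. The order over the 5 groups was PAR vehicle, TR combination, TR erdafitinib, TR 4-OHT and TR vehicle, and neighbours in this order overlapped in their ranges except at 2 steps, below PAR vehicle and between TR erdafitinib and TR 4-OHT.

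FOXA1 (ENSG00000129514, chromosome 14, 37589552 to 37596059, minus strand) had 182, 166 and 148 CPM in TR vehicle, against 410, 427 and 343 CPM in PAR vehicle. All TR values were below all PAR values. FOXA1 fell by 1.25 on the log2 scale (SE 0.144; adjusted p = 1.19e-05). Among TR cells it averaged 197 ± 24.7 CPM with the combination, 166 ± 5.00 CPM with erdafitinib, 162 ± 18.4 CPM with 4-OHT and 165 ± 17.1 CPM on vehicle, and the ranges of neighbouring TR groups overlapped throughout.

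TFAP2C (ENSG00000087510, chromosome 20, 56629306 to 56639283, plus strand), the AP-2γ gene, had the largest fall of the 7. It stood at 37.1, 31.4 and 30.0 CPM in TR vehicle, against 188, 213 and 151 CPM in PAR vehicle. The groups were far apart, and TFAP2C fell by 2.49 on the log2 scale (SE 0.161; adjusted p = 3.9e-08). Among TR groups TFAP2C had means of 31.8 ± 3.46 CPM in TR combination, 31.2 ± 0.979 CPM in TR erdafitinib, 31.9 ± 2.95 CPM in TR 4-OHT and 32.8 ± 3.797 CPM in TR vehicle. The lowest of all 12 TR libraries had 28.5 CPM and the highest 37.1 CPM.

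ELF5 (ENSG00000135374, chromosome 11, 34478791 to 34525193, minus strand) had 221, 162 and 202 CPM in TR vehicle, against 396, 385 and 315 CPM in PAR vehicle. The groups did not overlap, and ELF5 fell by 0.91 on the log2 scale (SE 0.140; adjusted p = 0.000174). Its fall against PAR was 1.15 in TR combination, 1.10 in TR erdafitinib and 0.80 in TR 4-OHT. The 3 comparisons and the one with TR vehicle share the PAR libraries.

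TBX3 (ENSG00000135111, chromosome 12, 114670255 to 114684175, minus strand) went the other way. It had 121, 103 and 128 CPM in TR vehicle, against 12.2, 14.5 and 10.7 CPM in PAR vehicle. The TR vehicle libraries held 2339 to 3743 raw counts of it and the PAR libraries 91 to 293. The log2 fold change was 3.25 (SE 0.178; adjusted p = 7.67e-09). In the other TR groups TBX3 was 9.72-fold (combination), 10.4-fold (erdafitinib) and 9.35-fold (4-OHT) above PAR vehicle, and the 4 TR groups overlapped one another.

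GATA3 (ENSG00000107485, chromosome 10, 8045378 to 8075198, plus strand) had 554, 724 and 715 CPM in TR vehicle, against 437, 457 and 563 CPM in PAR vehicle. The lowest TR library lay below the highest PAR library, so the groups overlapped. The log2 fold change was 0.45 (SE 0.157; adjusted p = 0.0369). The call was lost in 8 of 15 alternatives, among them the fits without PAR vehicle 1 (adjusted p = 0.125), without PAR vehicle 2 (0.104), without TR vehicle 2 (0.114) and without TR vehicle 3 (0.114). After correcting for GC content and length the value was 0.16 (adjusted p = 0.346). GATA3 was not called against PAR in the other TR groups, at 0.25 in TR combination (adjusted p = 0.248), 0.09 in TR erdafitinib (0.706) and 0.25 in TR 4-OHT (0.247). A lincRNA inside the GATA3 span and on its strand (ENSG00000232638, 8051541 to 8053084) averaged 98.9 ± 30.2 CPM in TR vehicle and 18.2 ± 3.40 CPM in PAR vehicle, and rose by 2.44 on the log2 scale (SE 0.224; adjusted p = 1.43e-06). Reads shared by both annotations were not counted, so counts of overlapping genes are uncertain where they meet. The antisense gene GATA3-AS1 had a log2 fold change of 0.58 (adjusted p = 0.16) in this stranded count.

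SPDEF (ENSG00000124664, chromosome 6, 34537802 to 34556333, minus strand) had 4.28, 40.03 and 37.96 CPM in TR vehicle, against 9.31, 6.67 and 48.5 CPM in PAR vehicle. Both groups held libraries near the bottom and near the top of the gene's whole range, so they overlapped fully. The log2 fold change was 0.33 with a 95% interval from -1.50 to 2.15 (adjusted p = 0.804), an interval that includes changes as large as those called for ESR1 and FOXA1. The SD of SPDEF within groups was 1.29 on the log2 scale, larger than for 97.4% of tested genes, while the other 6 lay between 0.145 and 0.187. Its transcripts had 64.6% GC, more than those of 96.8% of tested genes. SPDEF deviated from their group mean by -2.11 in TR vehicle 1 and by 1.74 in PAR vehicle 3, the same 2 libraries that lay lowest and highest for the GC-rich genes. Whether the GC gradient sets the values of SPDEF was not tested.

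**Figure D2:**
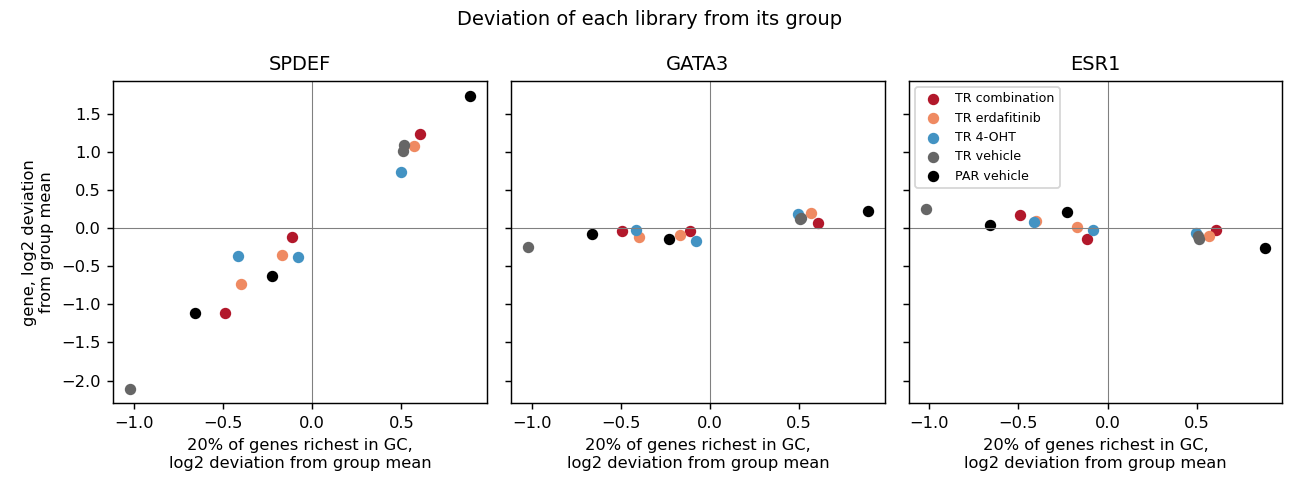
Deviation of each of the 15 libraries (points, coloured by group) from its group mean on the log2 scale, for SPDEF, GATA3 and ESR1 (y axes), against the deviation of the 20% of genes richest in GC (x axis). SPDEF runs from -2.11 to 1.74 along the GC axis, GATA3 from -0.25 to 0.22 in the same sense and ESR1 from 0.25 to -0.26 in the opposite sense.

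Against PAR vehicle, the 3 treated TR groups gave the same calls as one another: in each, 5 of the 7 genes were called, TBX3 higher and ESR1, FOXA1, TFAP2C and ELF5 lower. The share of all genes called was 34.6% for TR combination (19.4% higher, 15.2% lower), 35.2% for TR erdafitinib (19.5% and 15.7%) and 35.3% for TR 4-OHT (19.2% and 16.2%). All 4 comparisons use the same PAR libraries. The median log2 fold change of the 7 genes in TR vehicle against PAR vehicle was -0.91, beside 0.07 over all tested genes.

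Levels per kilobase of annotated exon put genes of different length on a rough common scale. GATA3 ranked first of the 7 in every group, with 196 ± 28.3 CPM per kb in TR vehicle and 143 ± 19.96 in PAR vehicle (SD, n = 3 each). In TR vehicle it was followed by ELF5 (39.7), FOXA1 (37.4), TBX3 (19.7), ESR1 (15.5), SPDEF (14.3) and TFAP2C (10.9). In PAR vehicle the order below GATA3 was FOXA1 (89.1), ELF5 (74.4), TFAP2C (61.4), ESR1 (41.9), SPDEF (11.2) and TBX3 (2.09). On this scale TBX3 stood last in PAR vehicle and above ESR1 in TR vehicle by group means. TFAP2C stood above ESR1 in PAR vehicle and last in TR vehicle. The length used is that of all annotated exons of a gene, 13.73 kb for ESR1, and not of the transcripts expressed. Ranks between genes therefore depend on the annotation.

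**Figure D3:**
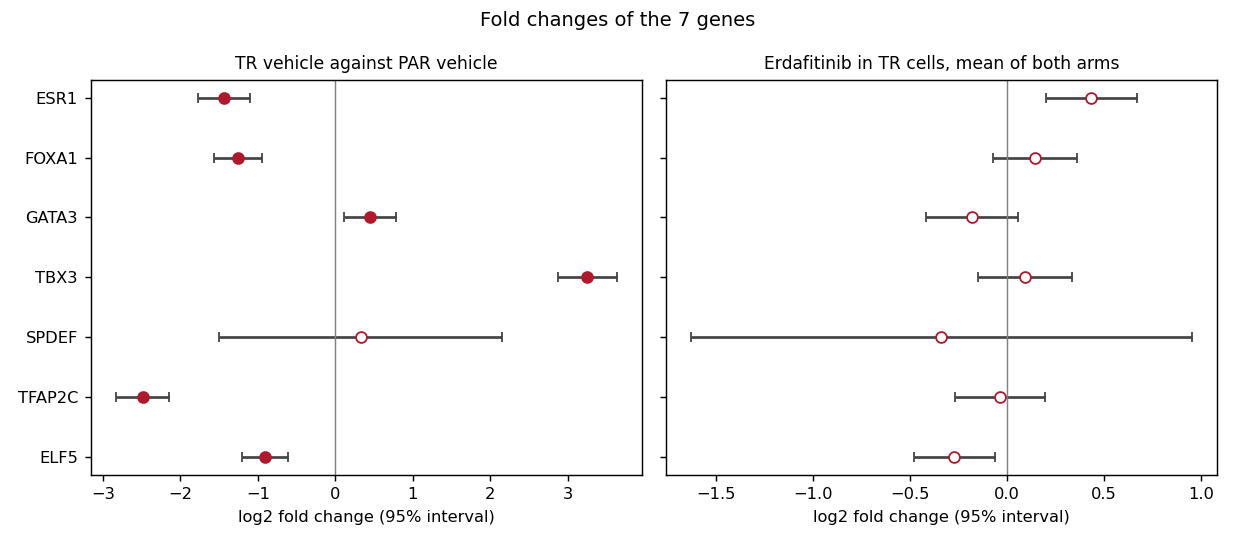
Log2 fold change (x axes, with different scales) of each of the 7 genes with its 95% interval, in TR vehicle against PAR vehicle (left) and for erdafitinib averaged over both TR arms (right). Filled points were called at an adjusted p under 0.05. On the left 6 genes are filled, from -2.49 for TFAP2C to 3.25 for TBX3, and on the right none is, with ESR1 at 0.43 and ELF5 at -0.27.

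Erdafitinib was given to TR cells without and with 4-OHT, which asks whether FGFR inhibition alters the luminal factors of resistant cells. None of the 7 genes was called in TR erdafitinib against TR vehicle (0.0925% of all genes were), in TR combination against TR 4-OHT (0.642%), in TR combination against TR vehicle (0.487%) or for the mean erdafitinib effect over both arms (1.71%). ESR1 had 269, 293 and 310 CPM in TR erdafitinib, against 251, 190 and 195 CPM in TR vehicle. It had 336, 271 and 294 CPM in TR combination, against 215, 239 and 222 CPM in TR 4-OHT. In both arms every library with erdafitinib was above every library without it.

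The log2 fold change of ESR1 was 0.45 with erdafitinib alone (SE 0.155; adjusted p = 0.707) and 0.41 with erdafitinib on top of 4-OHT (SE 0.155; adjusted p = 0.399). Averaged over both arms it was 0.43, with a 95% interval from 0.20 to 0.67 (unadjusted p = 0.00137; adjusted p = 0.0663). This misses the threshold. After correcting for transcript GC and length, ESR1 was called in TR erdafitinib against TR vehicle (0.44, adjusted p = 0.0454), in TR combination against TR 4-OHT (0.43, adjusted p = 0.0213) and in TR combination against TR vehicle (0.50, adjusted p = 0.00871). The averaged effect of ESR1 was called by the DESeq2 Wald test (adjusted p = 0.0305), by a fit of only the TR groups (0.0467), after correcting for transcript GC and length (0.00078) and without TR vehicle 1 (0.0182). No difference between the 2 arms was called by the interaction test (difference -0.04, 95% interval -0.51 to 0.43; adjusted p = 1).

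ELF5 was not called in either arm, though after correcting for transcript GC and length it was called in TR combination against TR 4-OHT (-0.47, adjusted p = 0.031). It had 162, 165 and 185 CPM in TR erdafitinib, against 221, 162 and 202 CPM in TR vehicle, which overlap. It had 171, 166 and 158 CPM in TR combination, against 198, 219 and 212 CPM in TR 4-OHT, which do not. The averaged log2 difference was -0.27 (95% interval -0.48 to -0.06; adjusted p = 0.253), and after correcting for transcript GC and length it was -0.36 (adjusted p = 0.012). For the remaining 5 genes the averaged effect was 0.15 for FOXA1, -0.18 for GATA3, 0.09 for TBX3, -0.34 for SPDEF and -0.04 for TFAP2C. Their intervals all contain 0, and leaving SPDEF aside they run from -0.42 (GATA3) to 0.36 (FOXA1).

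4-OHT itself was compared with vehicle in TR cells, alone and on top of erdafitinib. None of the 7 genes was called and none of all 16210 genes was (0% in each), in the main edgeR fit. At an unadjusted p under 0.05 there were 127 genes for TR 4-OHT against TR vehicle and 104 for TR combination against TR erdafitinib. In the second, the DESeq2 Wald test called 16 genes, edgeR with no filter 9 and edgeR with the GC and length correction 10. For ESR1 the log2 fold changes were 0.09 (95% interval -0.24 to 0.42) and 0.05 (-0.28 to 0.38). FOXA1 had the largest of the values on top of erdafitinib, 0.24 (-0.06 to 0.55; adjusted p = 1).

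Of a list of 24 further transcription factors and other genes linked to luminal cells, 22 were tested. In TR vehicle against PAR vehicle 13 were lower, 3 higher and 6 not called (72.7% called, beside 35.9% of all genes), with a median log2 fold change of -0.90. The list was drawn up with earlier results of these data known, so this share is a description. PGR, the progesterone receptor and a classical ERα target, averaged 157 ± 49.4 CPM in TR vehicle and 3863 ± 987 CPM in PAR vehicle, and fell by 4.62 on the log2 scale (SE 0.274; adjusted p = 1.74e-08). RUNX1, a partner of ERα on chromatin, fell by 4.88 (adjusted p = 3.57e-08), and the proto-oncogene MYB fell by 3.09 (adjusted p = 3.57e-08). Among those that rose were CREB3L1 (4.97) and NFIB (1.13). CREB3L1 averaged 2.69 ± 1.68 CPM in TR vehicle and had 4 counts over the PAR libraries (mean 0.0485 CPM), so the size of its rise is uncertain.

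2 genes of this list were called for erdafitinib averaged over both TR arms (9.09% of those tested, beside 1.71% of all genes). MYB averaged 20.4 CPM in TR combination and 19.1 in TR erdafitinib, against 11.3 in TR 4-OHT and 12.0 in TR vehicle, and rose by 0.76 on the log2 scale (SE 0.132; adjusted p = 0.0077). STAT5A, which carries prolactin signals, fell by 1.64 (SE 0.371; adjusted p = 0.0403) at low levels, with means of 0.255 CPM in TR combination and 0.288 in TR erdafitinib, against 1.04 in TR 4-OHT and 0.714 in TR vehicle.

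Of 24 paralogues of the 7 genes, 14 were tested, with 3 higher, 3 lower and 8 not called in TR vehicle against PAR vehicle (42.9% called, near the 35.9% of all genes) and a median of -0.11. Both other AP-2 genes tested rose. TFAP2A (AP-2α) averaged 154 ± 10.8 CPM in TR vehicle and 102 ± 3.61 CPM in PAR vehicle, a log2 fold change of 0.59 (adjusted p = 0.000628), and TFAP2B, at 1.63 ± 0.383 CPM in TR vehicle and 0.393 ± 0.348 CPM in PAR vehicle, rose by 2.31 (adjusted p = 0.00246). The ETS gene ELF4 rose by 0.67 (adjusted p = 0.00567). ESR2, the gene of ERβ, did not pass the filter on low counts.

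Of 32 coregulators of ERα tested, 4 were higher and 7 lower in TR vehicle (34.4% called, median 0.06), a share close to that of all genes. GREB1, an ERα cofactor whose gene is itself induced by oestrogen, averaged 13.1 ± 1.398 CPM in TR vehicle and 486 ± 36.3 CPM in PAR vehicle, and fell by 5.22 on the log2 scale (adjusted p = 4.26e-10). The corepressor NRIP1 fell by 1.66 (adjusted p = 0.000213) and the deacetylase gene HDAC1 rose by 0.55 (adjusted p = 0.00139). GREB1 was the only one of the 32 called for erdafitinib averaged over both TR arms (3.12%, beside 1.71% of all genes). It averaged 22.8 CPM in TR combination and 21.1 in TR erdafitinib, against 13.3 in TR 4-OHT and 13.1 in TR vehicle, a rise of 0.74 (SE 0.125; adjusted p = 0.00659) that left it far below PAR.

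Among 18 genes known to act on the level of ERα or its RNA, 4 rose and 3 fell (38.9% called, near the 35.9% of all genes, median 0.21). SIAH2, a ubiquitin ligase gene induced by oestrogen, fell by 3.58 on the log2 scale (adjusted p = 1.45e-09). DNMT1, the maintenance DNA methyltransferase, rose by 1.44 (adjusted p = 9.79e-05), and HSP90AA1, which encodes a chaperone of the receptor, rose by 1.19 (adjusted p = 0.000743). None of the 18 was called for erdafitinib averaged over both TR arms, where 1.71% of all genes were, so few calls could be looked for.

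Of 27 other nuclear receptors tested, 5 rose and 6 fell in TR vehicle (40.7% called, near the 35.9% of all genes, median -0.08). PPARG, the receptor of fat cell and secretory differentiation, had 154 counts over the TR vehicle libraries and 0 over the PAR libraries, which makes it at least 31.1-fold higher against a floor of 3 counts over the PAR group. PGR belongs to this list too.

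Of 14 markers of luminal progenitor and alveolar cells, among which ELF5 acts, 6 passed the filter on low counts. Of these 6, 3 rose and 1 fell in TR vehicle against PAR vehicle (66.7% called, beside 35.9% of all genes, median 1.89). The filter can keep a gene that is low in PAR because it is high in TR, so share and median can lean towards genes that rise. LIF, which was not called, enters the median with 7 counts over the PAR libraries. ALDH1A3, an aldehyde dehydrogenase of luminal progenitors, averaged 32.0 ± 0.745 CPM in TR vehicle and 2.87 ± 0.960 CPM in PAR vehicle, and rose by 3.43 on the log2 scale (adjusted p = 3.21e-08). PROM1 rose by 1.71 (adjusted p = 0.00363) and the milk fat globule gene MFGE8 by 3.44 (adjusted p = 0.000271), and PRLR, the prolactin receptor, fell by 1.11. With erdafitinib ALDH1A3 averaged 9.94 CPM in TR combination and 11.8 in TR erdafitinib, against 34.2 in TR 4-OHT, and fell by 1.61 averaged over both arms (SE 0.139; adjusted p = 2.65e-05).

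Of 18 listed transcription factors of basal and mesenchymal cells, 10 passed the filter on low counts. Of these 10, 9 were called, 5 higher and 4 lower (90% called, beside 35.9% of all genes, with 19.9% higher and 16% lower, median 0.09). The limit set by the filter applies to this list too. TP63, the basal cell factor p63, averaged 31.1 ± 3.40 CPM in TR vehicle and 0.944 ± 0.837 CPM in PAR vehicle, and rose by 4.85 on the log2 scale (adjusted p = 1.69e-06). TCF4 rose by 3.90 (adjusted p = 4.74e-07) and TWIST1 fell by 3.65 (adjusted p = 4.72e-06). SNAI2 had 113 counts over the TR vehicle libraries and 0 over the PAR libraries, at least 22.8-fold higher. Its paralogue SNAI1, at low levels, fell by 3.73 (adjusted p = 0.00246), and KLF4 fell by 3.98 (adjusted p = 5.62e-06). Of the 9 luminal epithelial markers 2 rose (22.2% called, beside 35.9% of all genes), CDH1 (E-cadherin) by 0.83 (adjusted p = 0.000248) and CD24 by 1.90 (adjusted p = 2.25e-06), and CLDN7 stood at -0.78 (adjusted p = 0.074). CD24 fell by 0.64 with erdafitinib averaged over both arms (adjusted p = 0.0177).

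**Figure D4:**
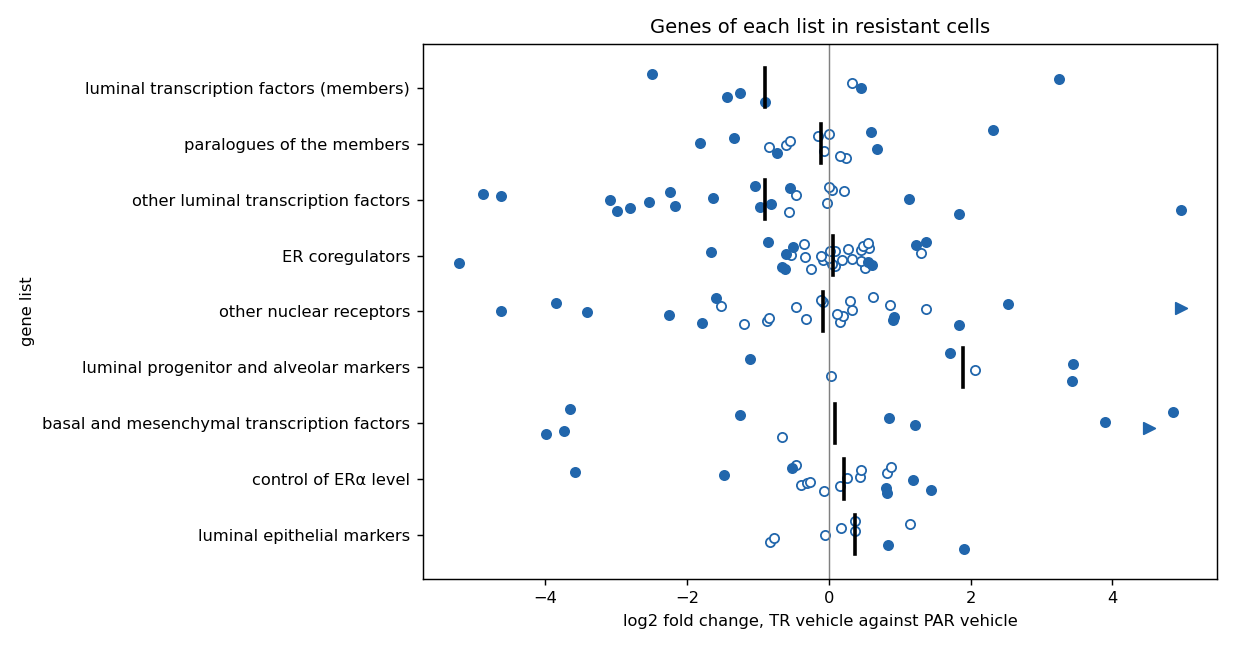
Log2 fold change in TR vehicle against PAR vehicle (x axis) of every tested gene of each list (rows), with filled points for genes called at an adjusted p under 0.05 and a vertical bar at the list's median. The 2 genes with no count in PAR, PPARG and SNAI2, are drawn as triangles at their lower bounds of 4.96 and 4.51. The medians of the 7 genes and of the list labelled other luminal transcription factors, which also holds other genes, lie at -0.91 and -0.90.

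The tested genes nearest to the members on the chromosome, or overlapping them, are given with their changes in TR vehicle against PAR vehicle. In this comparison 35.9% of all tested genes were called, so a called neighbour does not by itself show a change of the region. CCDC170, which lies 35.5 kb from ESR1 on the same strand, averaged 8.74 ± 2.18 CPM in TR vehicle and 50.7 ± 5.32 CPM in PAR vehicle. It fell by 2.54 on the log2 scale (SE 0.215; adjusted p = 6.61e-07), and with erdafitinib its averaged log2 fold change was 0.59 (adjusted p = 0.0625). On the other side, SYNE1, which overlaps the end of ESR1 on the opposite strand, rose by 1.47 (adjusted p = 0.0389). Around FOXA1, MIPOL1 stood at -0.57 (adjusted p = 0.0685) and TTC6 at -0.42 (adjusted p = 0.221), and neither was called. The nearest tested genes to TBX3 lie far off, with RBM19 703.9 kb away at 0.21 (adjusted p = 0.644) and MED13L 1273.7 kb away at -0.04 (adjusted p = 0.899). Genes that did not pass the filter on low counts were not considered here. Beside ELF5, CAT (catalase, 6.7 kb away) rose by 0.73 (adjusted p = 0.000418). Beside SPDEF, ILRUN rose by 1.02 (adjusted p = 1.05e-05). BMP7, the neighbour of TFAP2C at 529.5 kb, had 48 counts over the TR vehicle libraries and 0 over the PAR libraries, at least 9.70-fold higher. Of the other nearest genes, SEC23A beyond FOXA1 (0.60; adjusted p = 0.0254) and LINC02840 beyond ESR1 (2.17; adjusted p = 0.0227) rose, and TAF3 and RNA5SP299 beside GATA3, PACSIN1 beside SPDEF, RTF2 beside TFAP2C and LINC02707 beside ELF5 were not called.

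The genes whose 5 group means ran most like a member's were found by the root mean square difference of centred log2 CPM over the 5 groups, among 10915 genes. For ESR1 they were SNX24 (0.0279), PRELID2 (0.0314) and FNIP1 (0.032). For FOXA1 they were ABITRAM (0.0294), CEBPG and SCFD1, and for ELF5 FNBP1 (0.0331), IL11RA and EDN1. TFAP2C ran closest to MRPS21 (0.0646), MSX2 and MLPH, and TBX3 to PLBD1 (0.0563), KCNMA1 and STYK1. GATA3 ran closest to B4GAT1 (0.0218), ZNF266 and TM2D3, and SPDEF to JRK (0.0262), KIF1C and TSPAN14. 5 group means are few points and share their libraries, so the likeness is a description.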

How the data were processed

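RNA of the 15 T47D libraries was sequenced from stranded libraries made from total RNA, per the labels' protocols. Per the submitters' processing notes, the authors used HISAT2 2.1.0 and GRCh38. Per the file headers, featureCounts 2.0.1 then gave the deposited raw counts of each gene (paired-end, reverse-stranded, Ensembl 104). The version in the submitters' notes is another, 1.4.6-p1. By the command line in the headers, reads that match several places or genes were not counted. Trimming is not given in the sources used here.

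Here the counts of all 15 libraries entered 1 quasi-likelihood fit (R 4.3.3, edgeR 4.0.16) with a mean per group, TMM factors of 0.907 to 1.102, filterByExpr (16210 genes kept, 44454 left out) and 10 residual degrees of freedom. Genes were called at an adjusted p under 0.05 over all tested genes. The erdafitinib effect is the mean of TR erdafitinib minus TR vehicle and TR combination minus TR 4-OHT, and the interaction is their difference. The SE is the log2 fold change over the square root of F. Transcript GC came from GENCODE 29 and covered 98.91% of tested genes. No library was a copy of another in its group (chi-square of 7.42 to 148 a gene). Scripts were tested on simulated counts.

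From each list the text names the 3 tested genes with the smallest p in TR vehicle against PAR vehicle and those called between TR groups. It also names the nearest tested gene on each side of a member and the overlapping ones, and the 3 genes most like it among genes whose log2 CPM averaged 2 or more. Exceptions named after their values were seen are CREB3L1, NFIB, PRLR, ESR2, SNAI2, SNAI1 and KLF4. Some results that the rule would name are not reported here. The members and lists were chosen with earlier results of these data known.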

Additional observations from a re-analysis of the deposited data

How the results depend on the processing

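The alternatives were the Wald test of DESeq2 1.42.0, its size factors used in edgeR, no filter, a filter at 1 CPM in 3 libraries, a fit of only the groups compared, the replicate number as a block, counts thinned to the lowest total, a correction for GC content and length, leaving out the 2 shallowest libraries, and leaving out each library in turn. Of 1239 alternative values of the 7 genes, 85 changed sign, 8 lost a call (all GATA3 in TR vehicle against PAR vehicle) and 9 gained one (ESR1 and ELF5 with erdafitinib). No value that was called in either fit changed sign. The causes were not tested. In the calls of ESR1, FOXA1, TBX3, TFAP2C and ELF5 against PAR vehicle, no alternative ended a call.

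Same-numbered libraries of different groups did not deviate alike throughout: the 30 correlations of their deviations ran from -0.827 to 0.772 (median -0.034), and 13 were over 0.1. Libraries of a group differed along GC content, so these correlations cannot show whether the cultures were paired. With the replicate block, GATA3 in TR vehicle against PAR vehicle stood at 0.45 (adjusted p = 0.055), and 9 genes were called for TR erdafitinib and 52 for TR combination, both against TR vehicle. Of the 7 genes, SPDEF changed sign under the block in TR 4-OHT (0.36) and TR erdafitinib (0.31) against PAR vehicle and in the interaction (-0.22).

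Counts of all genes called moved by over 1.5 times as follows. A fit of only the groups compared called 3408 genes in TR vehicle against PAR vehicle (5818 in the main fit), 0 in TR erdafitinib against TR vehicle (15), 65 in TR combination against TR 4-OHT (104) and 11 in TR combination against TR vehicle (79). In the same order of the last 3, the Wald test called 87, 288 and 240, and the GC and length correction 86, 356 and 292. The Wald test called 580 and the correction 838 for the averaged erdafitinib effect (278), and the Wald test 1 for the interaction (0). For TR combination against TR erdafitinib (0) the Wald test called 16, no filter 9 and the correction 10. In TR erdafitinib against TR vehicle, no filter gave 26 and thinning 4. Of the 7 genes, the correction called 1 in TR erdafitinib against TR vehicle, 2 in TR combination against TR 4-OHT, 1 in TR combination against TR vehicle and 2 for the averaged effect, where the Wald test and the fit of only the TR groups called 1 each.

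The other sign changes were of small log2 fold changes that were not called. With the GC and length correction, SPDEF stood at -0.013 in TR vehicle against PAR vehicle, 0.13 in TR 4-OHT against PAR vehicle, 0.003 in TR erdafitinib against PAR vehicle, 0.14 in TR 4-OHT against TR vehicle, 0.016 in TR erdafitinib against TR vehicle and -0.31 in the interaction, GATA3 stood at -0.17 in TR erdafitinib against PAR vehicle, TFAP2C stood at 0.004 in TR 4-OHT against TR vehicle and FOXA1 stood at -0.003 in TR erdafitinib against TR vehicle. Without the 2 shallowest libraries, SPDEF stood at -0.083 in TR vehicle against PAR vehicle, TBX3 stood at 0.11 in TR 4-OHT against TR vehicle and -0.074 in TR combination against TR 4-OHT, GATA3 stood at -0.009 in TR combination against TR 4-OHT, TFAP2C stood at 0.040 in TR combination against TR 4-OHT and ESR1 stood at 0.003 in the interaction. With no filter, FOXA1 stood at -0.003 in TR erdafitinib against TR vehicle and GATA3 stood at -0.002 in TR combination against TR 4-OHT. With thinned counts, FOXA1 stood at -0.011 in TR erdafitinib against TR vehicle and GATA3 stood at -0.030 in TR combination against TR 4-OHT. With DESeq2 size factors, GATA3 stood at 0 in TR combination against TR 4-OHT. By the Wald test, GATA3 stood at 0 in TR combination against TR 4-OHT. With the 1 CPM filter, GATA3 stood at -0.009 in TR combination against TR 4-OHT. With only the groups compared, GATA3 stood at -0.005 in TR combination against TR 4-OHT.

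Leaving out 1 library in turn gave these ranges of counts and, for single genes, of log2 fold changes. The count of genes called ran from 2 to 17 in TR erdafitinib against TR vehicle, 45 to 63 in TR combination against TR 4-OHT, 35 to 111 in TR combination against TR vehicle and 140 to 445 for the averaged effect, where 0 to 1 of the 7 genes was called. SPDEF ran from -0.082 to 1.80 in TR vehicle against PAR vehicle, -0.54 to 1.42 in TR 4-OHT against PAR vehicle, -0.91 to 1.33 in TR erdafitinib against PAR vehicle, -1.14 to 1.21 in TR combination against PAR vehicle, -1.09 to 0.28 in TR combination against TR 4-OHT, -0.997 to 0.65 in TR combination against TR erdafitinib and -0.62 to 1.03 in the interaction. GATA3 ran from -0.007 to 0.23 in TR erdafitinib against PAR vehicle and -0.070 to 0.10 in TR combination against TR 4-OHT. FOXA1 ran from -0.12 to 0.048 in TR 4-OHT against TR vehicle and -0.065 to 0.088 in TR erdafitinib against TR vehicle. TBX3 ran from -0.13 to 0.11 in TR 4-OHT against TR vehicle, -0.074 to 0.17 in TR combination against TR 4-OHT, -0.065 to 0.12 in TR combination against TR vehicle and -0.20 to 0.039 in the interaction. TFAP2C ran from -0.11 to 0.054 in TR 4-OHT against TR vehicle, -0.13 to 0.028 in TR erdafitinib against TR vehicle, -0.089 to 0.049 in TR combination against TR 4-OHT, -0.063 to 0.070 in TR combination against TR erdafitinib, -0.13 to 0.054 in TR combination against TR vehicle, -0.079 to 0.014 in the averaged erdafitinib effect and -0.027 to 0.13 in the interaction. ELF5 ran from -0.021 to 0.20 in TR 4-OHT against TR vehicle and -0.087 to 0.016 in TR combination against TR erdafitinib. ESR1 ran from -0.040 to 0.12 in TR combination against TR erdafitinib and -0.18 to 0.032 in the interaction.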
